A study of Mus musculus with 12 samples.

Results

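The genes described here encode the casein kinases, GSK3 kinases and F-box ubiquitin ligase subunits that act on the PER and CRY proteins of the circadian clock. There are 9 of them (Csnk1d, Csnk1e, Csnk1a1, Csnk2a1, Gsk3a, Gsk3b, Btrc, Fbxw11 and Fbxl21) among the 23420 genes of the count table. They were chosen by name, with earlier results of these data known. Of the 4740 regions of BMAL1 binding, 1 lay within 10 kb of the start of any of the 9 genes. The cells were mouse embryonic fibroblasts of the 129/sv background, labelled -/- for Per1, Per2, Nr1d1 and Nr1d2, that carry a PER2-ER transgene. One set of cells was given 1 µM 4-hydroxytamoxifen (4-OHT) for 4 h, and the other its solvent, 0.1% ethanol (EtOH), for the same time. The compound binds the estrogen receptor, whose ligand-binding part is commonly written ER in such fusions. Every group shares the knockouts and the transgene, and cells without them were not analysed here. The promoter of the transgene and whether the line is 1 clone are not given in the sources used here. The question of the study was how PER2 changes BMAL1 binding to DNA and transcription.

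PER and CRY proteins repress the activator pair CLOCK-BMAL1, which binds E-box DNA. Their removal lets the cycle start again, and its timing is set by phosphorylation followed by ubiquitination. CK1δ and CK1ε, the products of Csnk1d and Csnk1e, phosphorylate PER. The paralogous F-box proteins encoded by Btrc and Fbxw11 (β-TrCP) then recognise phosphorylated PER and hand it to an SCF ubiquitin ligase. FBXL21 is an F-box protein that ubiquitinates CRY, and GSK3β phosphorylates CRY2 and other clock proteins. These events take place on proteins. The data here hold mRNA levels and BMAL1 binding, and neither kinase activity nor protein level was measured.

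There were 2 libraries in each of 6 groups (mRNA, BMAL1 ChIP and ChIP input, each with 4-OHT or EtOH). Counted mRNA reads numbered 69292382 and 89695667 with 4-OHT, against 71633387 and 60267540 with EtOH. The BMAL1 ChIP had 13740997 and 20712373 reads with 4-OHT, against 13502201 and 17635022 with EtOH. Whether the replicates are separate cultures is not stated in the labels. The p-values thus reflect library-to-library spread alone, some or all of which may be technical. Although the cells are labelled as knockouts, reads fell on all 4 genes: Per1 had 7.82 to 9.65 RPKM (CPM per kilobase of exon, CPM being counts scaled to the TMM-adjusted library size) over the mRNA libraries and Per2, to which the transgene can add, 94.3 to 104 RPKM. Nr1d1 had 6.23 and 6.67 RPKM with 4-OHT, against 18.7 and 21.3 RPKM with EtOH, and Nr1d2 had 8.50 and 7.60 RPKM with 4-OHT, against 17.98 and 19.97 RPKM with EtOH. Which exons each allele lacks is not stated, so gene totals do not check these labels. Of 8 fibroblast marker genes 7 had reads and Thy1 was at 0. Their summed level was 5546 to 5880 RPKM with 4-OHT, against 5372 to 5828 RPKM with EtOH, and none was called. Summed levels of epithelial, endothelial, myeloid and neural markers were at most 4.14 RPKM in any library, and those of skeletal muscle markers at most 19.2 RPKM. Cdh5, Myod1 and Gfap were at 0. Of these markers the neuronal tubulin gene Tubb3 was called higher (2.83 ± 0.265 RPKM with 4-OHT, 2.01 ± 0.0851 RPKM with EtOH, SD, n = 2 each), and its part in the results below was not tested. In such bulk libraries fewer cells of a type and less RNA per cell cannot be told apart.

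BMAL1 regions lay near 1 of these genes. The region names are those of peaks called in the control, that is in EtOH-treated cells, and a region counted as near when it lay within 10 kb of the upstream end of a gene's outermost annotated exon. Only Gsk3b among the 9 genes had such a region (11.1%), whereas 27.1% of 13197 tested genes with a single position had one. No test was made of this difference. The distance from the gene start to the nearest region is given for each gene. For the casein kinase 1 genes it was 167 kb at Csnk1d (chromosome 11, 120961741 to 120991333, mm10). At Csnk1e (chromosome 15, 79417852 to 79442057) it was 63.6 kb and at Csnk1a1 (chromosome 18, 61555582 to 61588299) 110 kb. These nearest regions lay closest to the starts of other genes, namely Fasn, Kcnj4 and Mir143hg. The distance from the start was 99961 bp at Csnk2a1 (chromosome 2, 152226840 to 152281851). Among the ligase genes it was 297 kb at Btrc (chromosome 19, 45363734 to 45533343), the farthest of the 9, 36.9 kb at Fbxw11 (chromosome 11, 32642555 to 32746814) and 59.7 kb at Fbxl21 (chromosome 13, 56522508 to 56537786). Of the regions nearest to the ligase genes, that at Fbxw11 had Fbxw11 itself as its closest start. The 8 regions nearest to the genes other than Gsk3b all lay outside the window, and their log2 ratios of 4-OHT to EtOH, scaled to library totals, were -2.15 to -1.12. These are descriptions, since the regions were chosen as peaks of EtOH-treated cells. The median distance of the 9 genes, 63.6 kb, was close to the 62.9 kb of tested genes.

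The GSK3 genes lay nearest to a region. At Gsk3a (chromosome 7, 25228259 to 25237851) it was 11.3 kb away, just outside the window, and 3 more regions lay within 20 kb. Of these 4 regions, 3 were closest to the start of Erf, an ETS repressor gene, and 1 to that of Dedd2. At Gsk3b (chromosome 16, 38089001 to 38246079) the region (chromosome 16, 38088288 to 38088436) covered 149 bp and ended 565 bp upstream of the start. The start of BC031361, a gene on the opposite strand whose exons share 260 bp with those of Gsk3b, lay 824 bp from the same region. The region can therefore not be assigned to either start by distance alone.

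**Figure D1:**
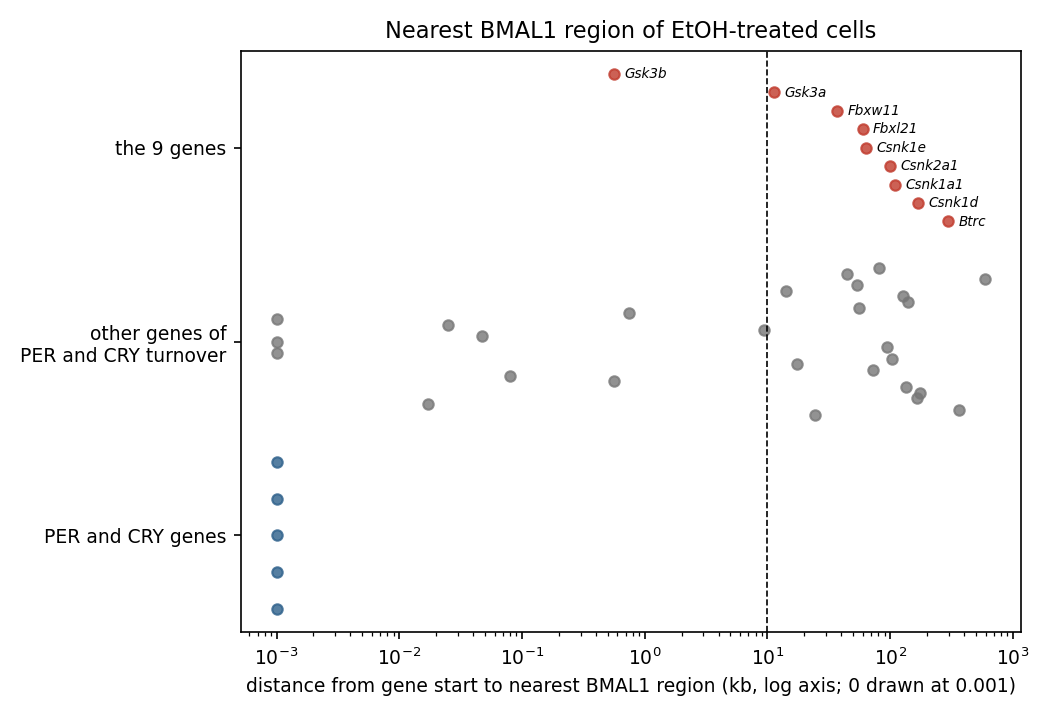
Distance in kb (log axis) from the gene start to the nearest BMAL1 region for the 9 genes, for 27 other genes of PER and CRY turnover and for the 5 PER and CRY genes. Each point is a gene, distances of 0 are drawn at 0.001 kb, and the dashed line marks 10 kb. Of the 9 genes only Gsk3b stands left of the line, whereas all 5 PER and CRY genes sit at 0.

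Promoter windows from 250 bases before to 50 after a gene's start were taken from RefSeq (GRCm38.p6, which has the coordinates of mm10). They were found for 6 of the 9 genes in 9 windows, of which Csnk1e had 4. Csnk1d, Csnk1a1 and Btrc had no entry used here. None of the 9 windows held CACGTG, the canonical E-box, and none held CACGTT on either strand, against 7.15% and 4.68% of 32851 RefSeq windows. The Csnk1e windows overlap in part, and at such shares 9 windows are too few to show a lack of either motif. Matches to these motifs cannot share bases. The bases before the start of Gsk3b, the only gene of the 9 with a nearby region, are shown beside those before the start of Cry1, which encodes a substrate of this machinery and whose start lies within a strong region. Capitals mark CACGTG or AACGTG, the reverse complement of CACGTT. Both runs are on the strand of the gene, chr16:38088751-38089000 (plus) and chr10:85185055-85185304 (minus).
Gsk3b: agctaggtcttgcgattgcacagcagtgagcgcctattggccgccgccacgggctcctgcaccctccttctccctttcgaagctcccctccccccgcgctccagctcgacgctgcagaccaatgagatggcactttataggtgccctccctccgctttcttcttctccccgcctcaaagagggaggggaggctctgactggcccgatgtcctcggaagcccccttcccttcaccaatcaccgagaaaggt
Cry1: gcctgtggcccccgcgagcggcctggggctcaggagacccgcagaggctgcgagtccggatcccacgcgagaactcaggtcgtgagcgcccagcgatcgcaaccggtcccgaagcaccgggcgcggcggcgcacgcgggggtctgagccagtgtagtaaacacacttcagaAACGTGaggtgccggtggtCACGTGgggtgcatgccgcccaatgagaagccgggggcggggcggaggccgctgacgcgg
The Cry1 run holds CACGTG with its first base 60 bases before the start. Strong regions also cover windows without it: the Per3 window held neither motif, and the Cry2 window held CACGTT but not CACGTG. The Gsk3b run holds neither motif, but the BMAL1 region lies upstream of this window, and its own sequence was not analysed here.

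BMAL1 signal at the Gsk3b region was lower in the 4-OHT libraries than in the EtOH libraries. All regions were chosen as peaks of EtOH-treated cells, a choice that by itself favours lower values with 4-OHT, most of all at weak peaks, and how much it adds was not tested. Scaled as reads per 10000000 sequenced in the library (RP10M), it stood at 5.82 and 6.28 RP10M in the 4-OHT libraries, against 15.6 and 10.2 RP10M in the EtOH libraries. These values rest on 8 and 13 reads with 4-OHT, against 21 and 18 reads with EtOH. Both 4-OHT values lay below both EtOH values, and the EtOH libraries differed more from each other than the 4-OHT libraries did. The log2 ratio of 4-OHT to EtOH was -1.04 (SE 0.44, 95% interval -1.92 to -0.18), which is 2.06-fold lower (edgeR adjusted p = 0.0197, scaled to library totals). Peaks of EtOH-treated cells chose the region and also enter this p-value, so it is given as a description. Over all regions 93.8% were called lower and 0 higher, with a median log2 ratio of -1.66, and 89.1% of regions had a lower log2 ratio than that of Gsk3b. In EtOH-treated cells 18.7% of regions had a signal as low as or lower than this one, on a scale not divided by length, and the region was shorter than the median region (149 bp against 226.5 bp). The authors' fold enrichment over background was 8.40 here and 8.25 at the median region.

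The ChIP signal at the Gsk3b region was set against the input. The inputs held 0.801 and 1.49 RP10M with 4-OHT, against 0.728 and 0.708 RP10M with EtOH, from 1 to 5 reads each. The ChIP signal was 4.51-fold above the input with 4-OHT (edgeR adjusted p = 0.00201) and 16.3-fold above it with EtOH. The EtOH value restates the peak call that chose the region and is given as a description. Of all regions 80.6% were called above the input with 4-OHT and 99.5% with EtOH. The input itself was not called different at this region (log2 ratio 0.82, SE 1.09, adjusted p = 0.964), nor at any other by edgeR, with 218 of 4740 regions (4.6%) at an unadjusted p under 0.05. The difference between treatments at Gsk3b was not called without 4-OHT replicate 2 (adjusted p = 0.0555) or without EtOH replicate 1 (0.233), with DESeq2 on library totals (0.162) or after the input change was subtracted (0.134). Scaled on the regions themselves, where the median change is set to about 0, its log2 ratio turned to 0.64 and was not called. With the same scaling the log2 ratio of ChIP to input was 0.31 with 4-OHT and 0.39 with EtOH, and neither was called.

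**Figure D2:**
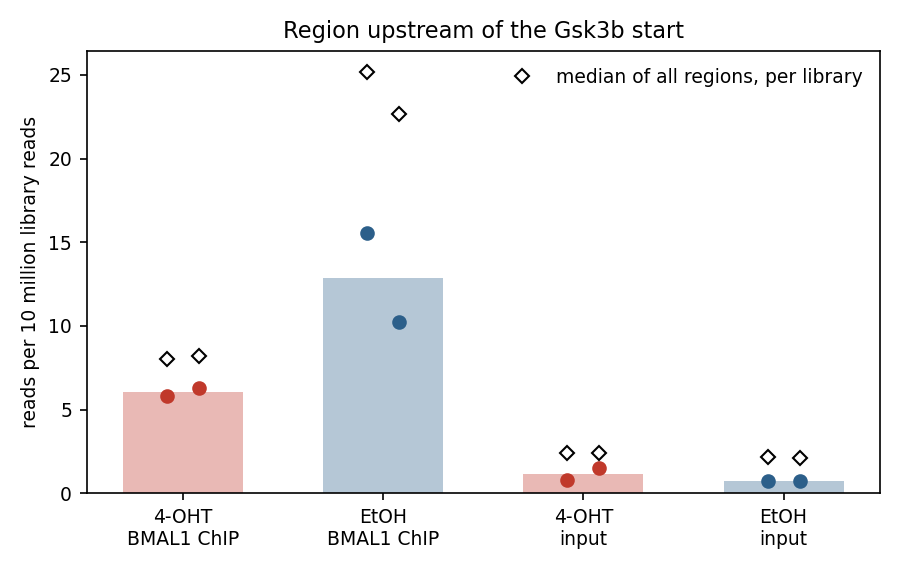
BMAL1 ChIP and input signal (reads per 10000000 library reads) at the region 565 bp upstream of the Gsk3b start, with a point for each library and a bar for the mean of 2. Open diamonds give the median over all 4740 regions in the same library, and the Gsk3b region lies below it in all 8 libraries.

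The regions 11.3 to 17.0 kb from the Gsk3a start lay outside the window and are given for comparison. The nearest one (chromosome 7, 25249184 to 25249433) held 8.01 and 7.72 RP10M with 4-OHT, against 20.7 and 17.6 RP10M with EtOH. The strongest of them, close to Dedd2 (chromosome 7, 25220453 to 25220845), held 19.6 and 17.4 RP10M with 4-OHT, against 66.7 and 84.5 RP10M with EtOH. Fitted values with 4-OHT were 1.96-fold to 2.41-fold lower at the 3 regions near Erf and 4.14-fold lower at that near Dedd2, in regions likewise chosen in EtOH-treated cells.

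None of the 9 mRNAs was called different between treatments. All 9 passed the expression filter and were tested among 13216 genes, of which 2.44% were called (0.802% higher and 1.63% lower, edgeR quasi-likelihood test, Benjamini-Hochberg adjusted p below 0.05). Over the 9 genes the median log2 change was 0.00, and over all tested genes it was also 0.00. The median size of the log2 change, regardless of sign, was 0.044 for the 9 genes and 0.069 for all tested genes. In 2 of the 9 genes (22.2%), Csnk1d and Gsk3b, the libraries of both treatments did not overlap, against 36.9% of tested genes. For the 8 genes other than Fbxl21, with 2943 to 16681 counts per library, the 95% intervals of the change lay between 0.851-fold and 1.22-fold. DESeq2 called none of the 9 either.

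Csnk1d had the largest change of the PER kinases. It stood at 174 and 184 CPM in the 4-OHT libraries, against 166 and 155 CPM in the EtOH libraries. Both 4-OHT libraries lay above both EtOH libraries. The lower 4-OHT library and the higher EtOH library differed less from each other than the libraries within either treatment did. The log2 change was 0.16 (SE 0.07, 95% interval 0.03 to 0.29), with an unadjusted p of 0.018 and an edgeR adjusted p of 0.313. It was the 1 gene of the 9 (11.1%) with an unadjusted p under 0.05, against 10.1% of all tested genes. Csnk1e, its paralog, stood at 97.1 and 101 CPM with 4-OHT, against 99.8 and 102 CPM with EtOH, and these values interleave. Its log2 change was -0.03 (SE 0.06, adjusted p = 0.950). Csnk1a1, which encodes CK1α, a relative known also from the degradation of β-catenin, stood at 155 and 149 CPM with 4-OHT, against 155 and 163 CPM with EtOH. The lower EtOH library lay between the 4-OHT libraries, and the log2 change was -0.06 (SE 0.06, adjusted p = 0.867).

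Csnk2a1 encodes a catalytic subunit of CK2, which phosphorylates PER2 and BMAL1. Its mRNA stood at 131 and 122 CPM with 4-OHT, against 133 and 129 CPM with EtOH, a log2 change of -0.06 (SE 0.06, adjusted p = 0.885). The EtOH libraries lay above or between the 4-OHT libraries. Gsk3b, whose product phosphorylates CRY2, had 169 and 160 CPM with 4-OHT, against 174 and 178 CPM with EtOH. Both 4-OHT libraries were below both EtOH libraries, but the log2 change of -0.10 (SE 0.06, 95% interval -0.23 to 0.03) was not called (edgeR adjusted p = 0.670). The authors' deposited table holds 3317 genes and gives Gsk3b a DESeq2 log2 fold change of -0.09 and an adjusted p of 0.846. The other 8 genes are not listed in it, and why is not stated in the sources used here. Gsk3a, its paralog, had 74.2 and 83.1 CPM with 4-OHT, against 76.5 and 77.8 CPM with EtOH. Here the 4-OHT libraries enclosed the EtOH libraries, and the log2 change was 0.03 (SE 0.07, adjusted p = 0.954).

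None of the F-box genes was called. Btrc stood at 49.95 and 48.5 CPM with 4-OHT, against 46.7 and 49.2 CPM with EtOH, a log2 change of 0.04 (SE 0.07, adjusted p = 0.938). Fbxw11 stood at 127 and 127 CPM with 4-OHT, against 128 and 125 CPM with EtOH, a log2 change of 0.00 (SE 0.06, adjusted p = 0.999). In both genes the treatments overlapped. Fbxl21, a CRY ligase gene, was barely expressed, with 46 and 65 reads in the 4-OHT libraries, against 50 and 38 reads in the EtOH libraries. That is 0.660 and 0.719 CPM with 4-OHT, against 0.703 and 0.636 CPM with EtOH. The 95% interval of its log2 change of 0.04 ran from -0.45 to 0.54 (adjusted p = 0.990), that is from 0.730-fold to 1.46-fold, wider than for the other 8 genes.

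Levels per exon length placed Csnk1a1 first, at 77.3 RPKM as the mean of the 4 libraries (range 74.0 to 80.9). Csnk1d followed at 45.3 RPKM (41.3 to 49.2), then Csnk1e at 36.2 (35.2 to 37.1) and Gsk3a at 34.5 (32.9 to 36.8). Csnk1e and Gsk3a overlapped in range, and Csnk1e was the higher in 3 of 4 libraries. Csnk2a1 at 30.6 RPKM (28.9 to 31.6) and Fbxw11 at 29.2 RPKM (28.9 to 29.5) overlapped likewise. Gsk3b stood at 20.5 RPKM (19.2 to 21.5), Btrc at 7.68 RPKM (7.39 to 7.90) and Fbxl21 at 0.346 RPKM (0.323 to 0.366). Apart from the pairs named, no neighbours in this order overlapped. Csnk1a1 lay at percentile 93.1 of tested genes by level, Btrc at 40.7 and Fbxl21 at 10.0. The genes with levels most like Csnk1d over the 4 libraries, by Euclidean distance of log2 RPKM, were Anxa8 (distance 0.042) and Cdkn2b (0.065). Those most like Csnk1e were Vac14 (0.028) and Mtss1l (0.047).

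**Figure D3:**
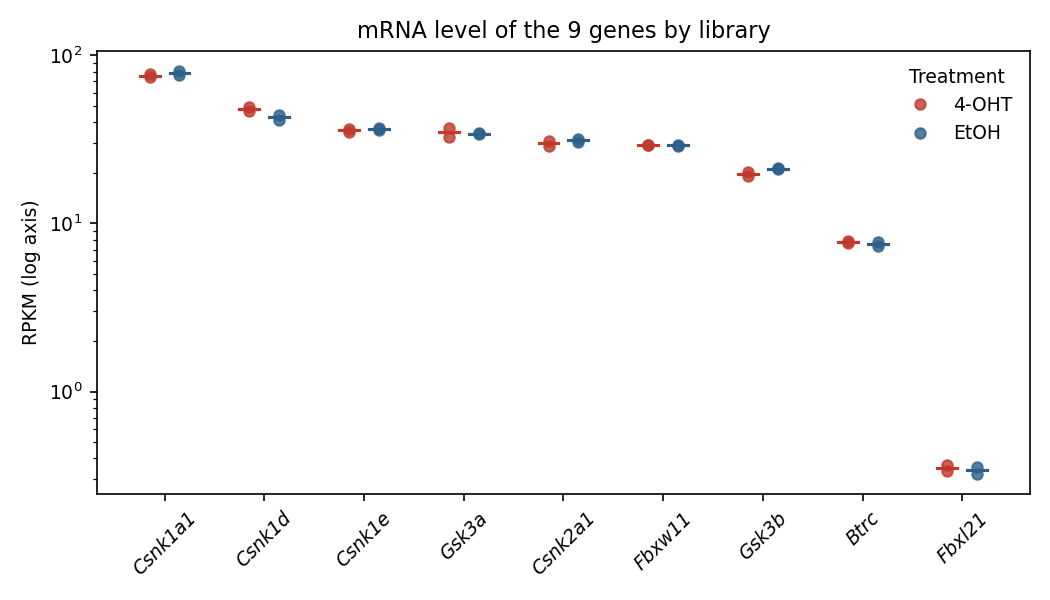
mRNA level in RPKM (log axis) of the 9 genes in each library, with 4-OHT in red and EtOH in blue. Points are libraries and lines are means of 2. Csnk1a1 is highest at 74.0 to 80.9 RPKM, Fbxl21 lowest at 0.323 to 0.366 RPKM, and treatments lie close together throughout.

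Within paralog pairs, 1 gene was the higher in every library. Fbxw11 exceeded Btrc on the per-length scale by 3.70-fold and 3.81-fold in the 4-OHT libraries, against 3.99-fold and 3.71-fold in the EtOH libraries. Csnk1a1 exceeded Csnk1d by 1.66-fold and 1.51-fold with 4-OHT, against 1.73-fold and 1.96-fold with EtOH. Csnk1d exceeded Csnk1e by 1.32-fold and 1.34-fold with 4-OHT, against 1.23-fold and 1.11-fold with EtOH. Both CK1 ratios contain Csnk1d. The ratio of Gsk3b to Gsk3a was 0.618 and 0.523 with 4-OHT, against 0.619 and 0.625 with EtOH. The treatments did not overlap in either CK1 ratio or in the GSK3 ratio, and these differences were not tested. For levels of single genes the share without overlap was 36.9% of tested genes, and no such share was computed for ratios. In the GSK3 ratio the 4-OHT libraries differed from each other more than 4-OHT replicate 1 did from EtOH.

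The wider machinery of PER and CRY turnover had no called change either. Of 27 further genes, all tested, none was called higher and none lower, and none had an unadjusted p under 0.05, against 2.44% of all genes called and 10.1% at such a p. They comprised 5 relatives of CK1 and CK2, 6 genes of SCF and CUL4A ligases, 6 phosphatase genes, 3 deubiquitinase genes and 7 other kinase genes. Their median log2 change was -0.03. The largest log2 changes in size were those of Usp2, a deubiquitinase gene (0.34, SE 0.20, adjusted p = 0.618), and Prkaa2, an AMPK catalytic subunit gene (-0.18, SE 0.14, adjusted p = 0.786). Both were expressed at low levels, 0.307 and 0.333 RPKM as means of 4 libraries. A region lay within 10 kb of 10 of these 27 genes (37.0%), against 27.1% of tested genes with a single position. By list, it was 4 of 6 phosphatase, 3 of 6 ligase and 2 of 7 other kinase genes. Among deubiquitinase genes it was 1 of 3, and among relatives of CK1 and CK2 0 of 5. These differences were not tested.

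The genes of the substrates, given for comparison, had strong regions and some had changed mRNA levels. All 5 of Per1, Per2, Per3, Cry1 and Cry2 had a region within 10 kb. The strongest at each held 95.1 to 311 RP10M as means with 4-OHT, against 649 to 1833 RP10M with EtOH, and all were peaks chosen in EtOH-treated cells. In mRNA, Cry1 (26.2 ± 0.127 RPKM with 4-OHT, 15.7 ± 1.06 RPKM with EtOH, SD, n = 2 each) and Cry2 rose, Per3 fell, and Per1 and Per2 were not called (edgeR, adjusted p below 0.05). Reads from the PER2-ER transgene can count towards Per2. Whether the changes of the substrate genes differ from those of the 9 genes was not tested.

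**Figure D4:**
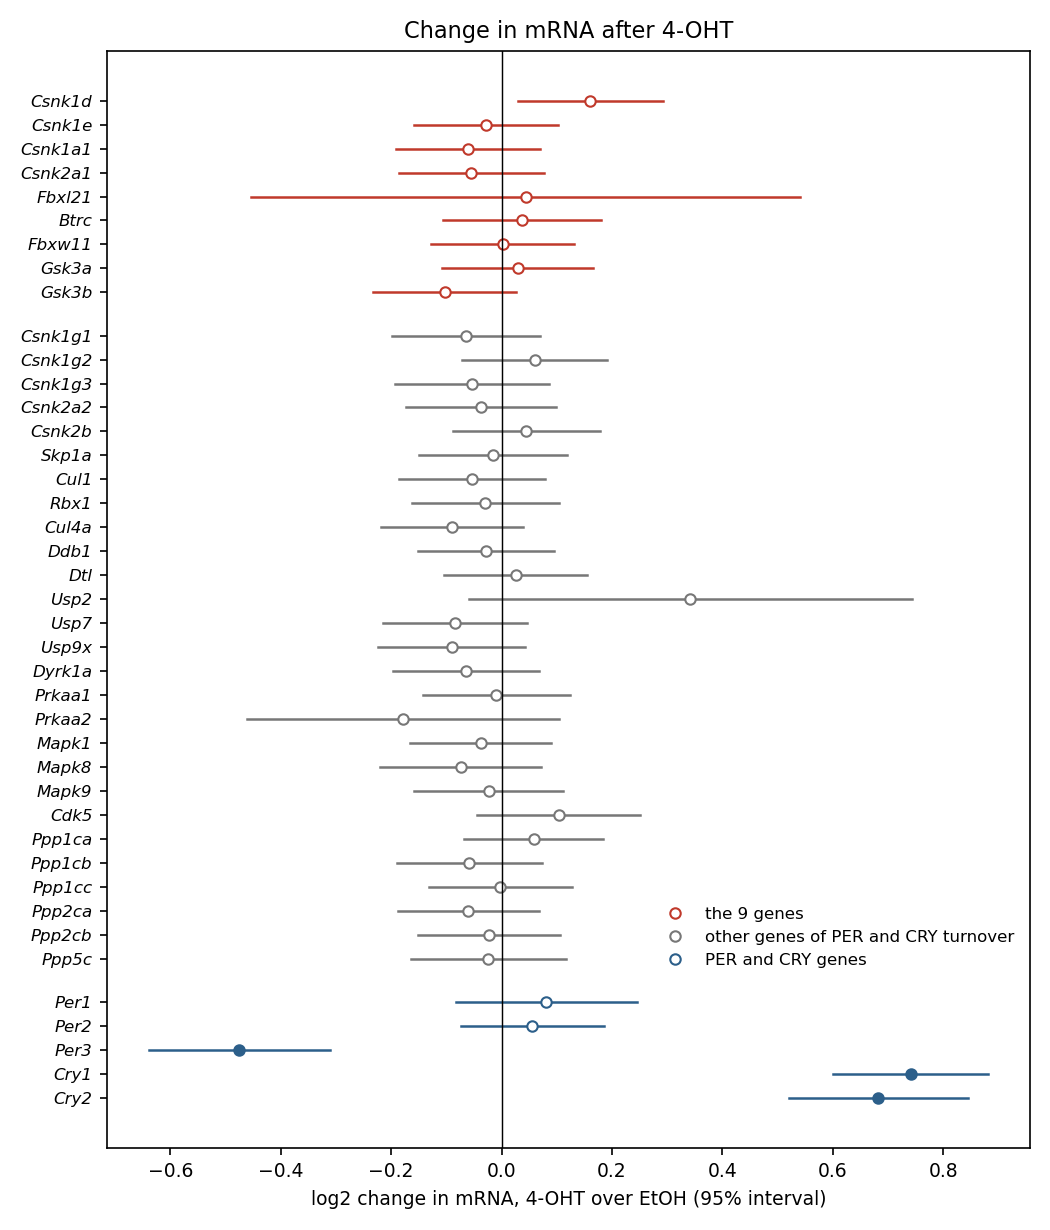
Log2 change in mRNA, 4-OHT over EtOH, with 95% intervals from the edgeR fit, for the 9 genes (red), 27 other genes of PER and CRY turnover (grey) and the 5 PER and CRY genes (blue). Filled points were called at an adjusted p below 0.05, which holds for Per3, Cry1 and Cry2, whereas the 9 genes lie between -0.10 and 0.16.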

How the data were processed

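Per the labels, mRNA libraries were made with a stranded TruSeq kit, and ChIP used an antibody to BMAL1 on formaldehyde-crosslinked chromatin. Gene counts were made by the authors with featureCounts 1.5.0-p1, per the file headers, over exons joined by gene, on reverse-stranded reads and a UCSC mm10 annotation. The submitters' processing notes also name bedtools 2.25.0 and DESeq2. No aligner is named in the labels or headers. Each deposited region file gives a count of reads in the same 4740 regions, named as MACS2 peaks of the control, with the caller's fold enrichment, a ratio. The authors' deposited signal table is named RPKM, but holds 5 plus reads per 10000000 library reads with no division by length, and library totals were taken from it. The authors' deposited comparison table gives log2 fold changes and adjusted p-values from DESeq2.

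The quasi-likelihood test of edgeR 4.0.16 (R 4.3.3) was applied here to the counts (robust quasi-likelihood fits on the whole table, TMM factors and the default filter for genes, library totals and no filter for regions, and 1 fit of all 8 ChIP and input libraries for ChIP against input). DESeq2 1.42.0 was an alternative. The 95% intervals come from the fitted coefficient and its test statistic. RPKM were computed here from the counts, exon lengths and TMM-scaled library sizes. The genes and lists were chosen with earlier results of these data known. Named genes were the 9 genes, the 2 largest changes among the 27 others, the PER and CRY genes, and the 2 genes nearest in level to Csnk1d and to Csnk1e. Beyond these, the labelled knockouts, cell type markers and genes beside a region are named where a check or position needs them. A further gene of the list is not reported here. Reads without molecular identifiers are not independent molecules, so read numbers give counting error only.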

Additional observations from a re-analysis of the deposited data

How the results depend on the processing

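The 9 genes kept 0 calls with DESeq2, RLE factors, library totals alone, no filter on low counts, the replicate block and each of the 4 libraries left out, with adjusted p-values down to 0.130 (Csnk1d without 4-OHT replicate 1), and the 27 other genes of PER and CRY turnover kept 0 calls in each of these 9 settings. Log2 changes near 0 changed sign. That of Fbxw11 was -0.000584 with DESeq2 and -8.68e-05 with RLE factors. On leaving out each library in turn, it ran from -0.011 to 0.016 for Fbxw11, from -0.023 to 0.12 for Fbxl21, from -0.00047 to 0.075 for Btrc, from -0.054 to 0.11 for Gsk3a, from -0.052 to 0.20 for Per1 and from -0.015 to 0.12 for Per2. Over all genes, 106 rises became 62 with DESeq2 and 40 to 196 without 1 library (196 and 44 when 4-OHT replicate 1 or 2 was dropped, 67 and 40 when EtOH replicate 1 or 2 was), and 216 falls became 140 to 247 (140 without EtOH replicate 2). The labels do not say that replicate numbers mark a shared origin, and deviations of same-numbered mRNA libraries correlated at -0.17 over 13216 genes. The replicate block gave 60 rises and 152 falls over all genes and 0 calls among the 9. A crossed replicate block, chosen after seeing the data, gave 518 rises and 611 falls, with 1 call among the 9 genes, a rise of Csnk1d.

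At the Gsk3b region the log2 ratio of 4-OHT to EtOH was 0.64 with TMM factors over the regions, 0.65 with DESeq2 size factors, -1.08 with DESeq2 on library totals, -1.85 with the input change subtracted and -1.34 to -0.74 without 1 library. Scaling on the regions sets their shared change to about 0 by construction. Over all regions it gave 66 higher and 228 lower with TMM and 13 and 141 with DESeq2, and subtracting the input change gave 2395 lower. With TMM factors, chosen after seeing the data for this contrast, ChIP over input at Gsk3b had a log2 ratio of 0.31 with 4-OHT and 0.39 with EtOH, neither called. A window of 20 kb raised the genes with a region from 1 to 2, by adding Gsk3a, while 1 kb, 5 kb and RefSeq starts (held for 6 of the 9 genes) left Gsk3b alone. Reads per region (8 to 21 at Gsk3b) limit what can be seen there.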
